A study of Homo sapiens with 9 samples.

Results

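Eph receptors and their ephrin ligands were followed in AsPC-1 cells, an established human pancreatic adenocarcinoma line, after knockdown of STOML2. The set was defined by gene symbol as 10 genes, chosen with earlier results of these data known. They were the receptors EPHA1, EPHA2, EPHA4, EPHB2, EPHB3 and EPHB4 and the ligands EFNA1, EFNA5, EFNB1 and EFNB2. Of these, 9 had a row that the platform annotation assigns to that 1 gene, among 17687 genes in all, and EPHB2 was not analysed here. The product of STOML2, known as SLP-2, is found in the inner membrane of mitochondria. The groups were AsPC-1 cells with a pBAsi-hU6 NEO plasmid for shRNA-2 of SLP-2 (sh2), with the same plasmid type for shRNA-1 of SLP-2 (sh1), and with the blank plasmid (control). A short hairpin RNA (shRNA) is processed into a small RNA that directs the decay of its target. All groups were transfected and kept under Geneticin for 3 weeks, and each was then grown from 1 colony. Every group is therefore 1 clone with 3 arrays, and clone and shRNA cannot be told apart. No source says that the 3 arrays came from separate cultures. The p-values therefore set a difference only against the scatter of these arrays, which may be technical, and not against variation between clones.

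Eph receptors form the largest family of receptor tyrosine kinases. Their ligands stay on the surface of the neighbouring cell, ephrin-A proteins through a lipid anchor and ephrin-B proteins through a transmembrane segment, so that signalling needs cell contact. It runs forward into the cell with the receptor and in reverse into the cell with the ephrin, and changes adhesion, repulsion and cell shape. EphA receptors mostly bind ephrin-A ligands and EphB receptors mostly ephrin-B ligands, with EPHA4 as a receptor for both classes. EPHA2 is known for its high expression in pancreatic adenocarcinoma.

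The promoters of the 3 genes of the set that passed in both lines are shown because 2 of these genes rose and 1 fell. Each sequence is the 250 bases before the start of the gene, on the gene's strand, from RefSeq (GRCh38.p14).
EPHA2 (chr1:16156070-16156319, minus strand): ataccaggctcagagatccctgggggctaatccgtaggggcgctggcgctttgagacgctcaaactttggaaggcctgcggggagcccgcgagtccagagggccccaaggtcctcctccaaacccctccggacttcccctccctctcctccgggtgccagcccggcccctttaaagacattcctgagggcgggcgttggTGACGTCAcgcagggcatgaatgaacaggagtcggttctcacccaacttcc
EFNB2 (chr13:106535663-106535912, minus strand): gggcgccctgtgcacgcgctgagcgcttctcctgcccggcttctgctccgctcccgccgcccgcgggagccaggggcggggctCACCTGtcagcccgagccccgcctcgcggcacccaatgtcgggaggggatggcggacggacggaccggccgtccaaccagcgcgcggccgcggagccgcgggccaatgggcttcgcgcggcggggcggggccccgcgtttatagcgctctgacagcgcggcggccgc
EPHA4 (chr2:221574203-221574452, minus strand): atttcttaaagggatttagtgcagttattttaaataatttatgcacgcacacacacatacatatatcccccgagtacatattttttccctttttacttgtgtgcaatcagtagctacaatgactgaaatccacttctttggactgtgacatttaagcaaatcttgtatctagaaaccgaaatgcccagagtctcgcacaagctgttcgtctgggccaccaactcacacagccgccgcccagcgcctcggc
Capitals mark matches to the motifs searched. These were CAGGTG, the E-box bound by SNAI and ZEB repressors (also read as CACCTG on the opposite strand), TGANTCA (AP-1) and TGACGTCA (the cyclic AMP response element), on both strands. The EPHA2 window held TGACGTCA starting 51 bases before the gene's start, a motif found in 1.65% of 35116 promoter windows of that length. EFNB2 held CACCTG 167 bases before its start, and CAGGTG or its complement occurred in 17.5% of windows. TGANTCA, present in 6.57% of all windows, was not found in these 3 sequences, and the EPHA4 window shown held none of the 3 motifs. No matches overlapped one another. The EPHA4 window had a G and C content of 43.2%, against 63.2% for EPHA2 and 78.4% for EFNB2 (median of all windows 58.0%). The table lists another EPHA4 window at a start inside the gene, with 78.0% G and C and none of the motifs. Outside the set, EPHA5 and EPHB1 fell and EFNA4 rose in both lines, and their windows are not shown. Their G and C content was 61.2% and 75.2% for the EPHA5 windows, 60.8% for EPHB1 and 58.4% for EFNA4.

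Signals were read as log2 values, from 2.03 to 18.57, for 21448 rows. With no detection calls in use, 4.21, the lower quartile of mean signals, stood in for the background (the background proxy). Array medians lay between 6.57 and 6.65, and no 2 arrays were identical. STOML2 had log2 signals of 7.85, 7.99 and 7.35 in sh2 and 8.36, 8.42 and 8.18 in sh1, against 13.70, 13.66 and 13.65 in the control, so the target was lower in both lines as labelled. Differences were tested with limma in 1 model over the 9 arrays. A difference passed at a Benjamini-Hochberg adjusted p under 0.05 over all rows, and an error after ± is the standard error (SE) of the model unless it is named as an SD. Signals of different genes come from different probes and were not set against each other, except that the signals of marker genes were summed per list.

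Knockdown of STOML2 was accompanied by changes in opposite directions within the family. EPHA2 and EFNB2 rose and EPHA4 fell in both lines, while EFNA5 rose and EPHB4 and EFNB1 fell in sh2. Among these 9 genes, 3 rose and 3 fell in sh2 against the control, where 16.3% of all rows passed (8.33% higher and 7.98% lower). In sh1, 2 rose and 1 fell, beside 18.8% of all rows (9.76% higher, the others lower). A difference that passed in both lines in the same direction was found for 3 of 9 members and for 8.93% of all rows, and both lines share the control arrays. The median difference of the members was -0.17 in sh2 and -0.25 in sh1, against 0.02 in each line over all rows. The arrays of the 2 groups did not overlap for 7 of 9 members in sh2 and 5 of 9 in sh1, against 32.5% and 34.5% of all rows. The sh1 count includes EPHB3, which lay near the background proxy (at most 4.10 in sh1 and at least 4.12 in the control). The members and the lists that follow were chosen with earlier results of these data known. An excess over all rows can follow from that choice, so these counts and medians only describe the chosen genes.

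**Figure D1:**
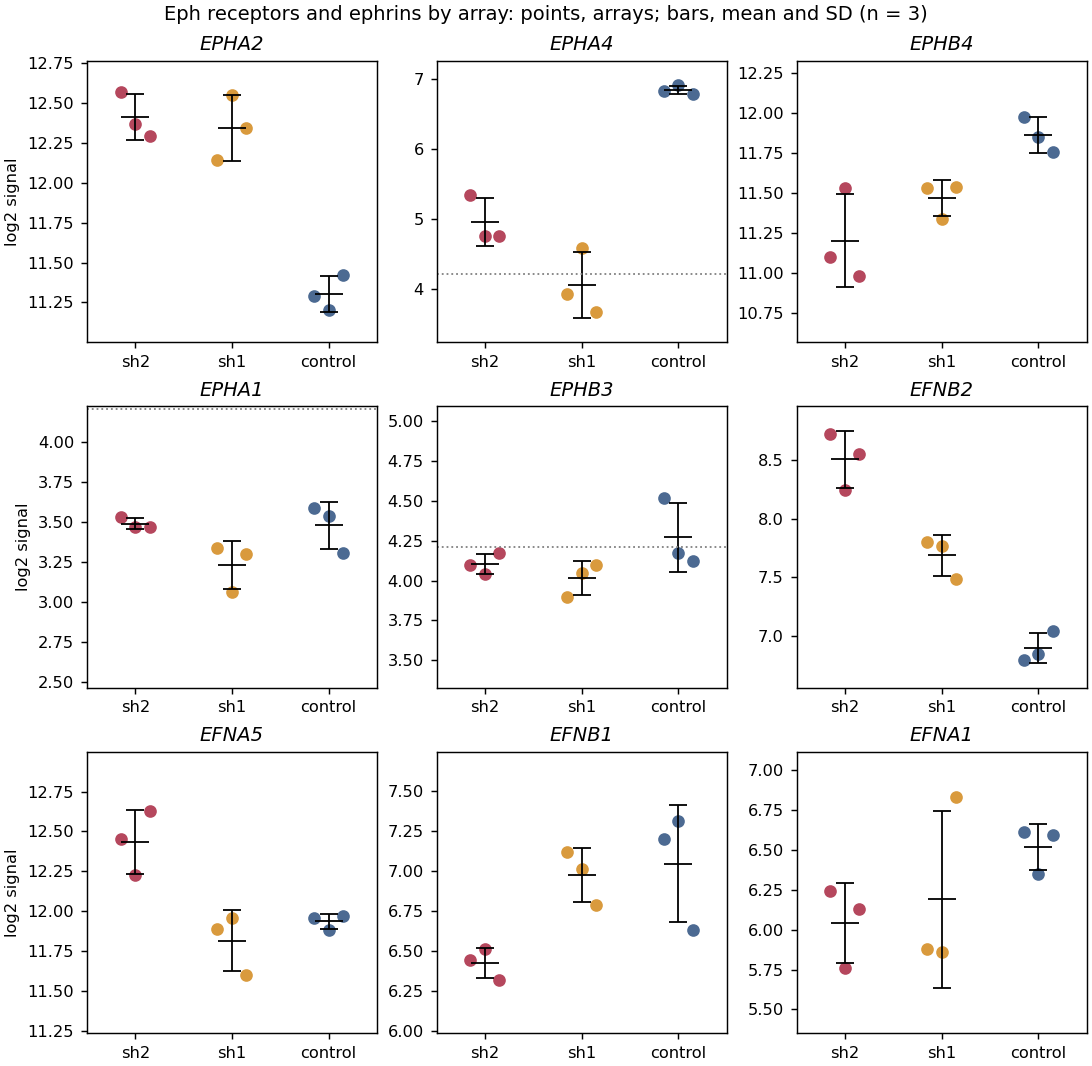
Log2 signal (vertical axis, scaled separately for each gene) of the 9 measured Eph receptors and ephrins in sh2, sh1 and control arrays. Points are arrays, bars the mean and SD of 3 arrays, and the dotted line the lower quartile of all row means (4.21); EPHA2 and EFNB2 lie above the control in all shRNA arrays and EPHA4 below it.

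Among the receptors, EPHA2, which signals on contact with ephrin-A1 and can also promote migration without ligand, was higher in both lines. Its log2 signal was 12.57, 12.37 and 12.29 in sh2 and 12.14, 12.55 and 12.34 in sh1, against 11.29, 11.20 and 11.42 in the control. All 6 shRNA arrays were above all 3 control arrays, and the arrays of both lines overlapped each other. The rise was 1.11 ± 0.14 in sh2 (2.15-fold, limma, adjusted p = 0.000268) and 1.04 ± 0.14 in sh1 (2.06-fold, adjusted p = 0.000351). Between the lines the difference was 0.07, with a 95% interval of -0.25 to 0.38 (adjusted p = 0.844).

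EPHA4, a receptor known for repulsive axon guidance and bound by ephrins of both classes, was lower in both lines and had the widest spread of group means in the set. Log2 signals were 5.35, 4.76 and 4.76 in sh2 and 3.92, 4.58 and 3.67 in sh1, against 6.83, 6.91 and 6.79 in the control. The groups did not overlap, with the control highest, sh2 between and sh1 lowest. EPHA4 fell by 1.89 ± 0.23 in sh2 (limma, adjusted p = 0.000163) and by 2.79 ± 0.23 in sh1 (adjusted p = 6.80e-06), which corresponds to signals 3.70-fold and 6.90-fold lower. The sh1 mean of 4.06 ± 0.47 (SD, n = 3) lay under the background proxy, so the size of the fall in sh1 is limited by the background. With sh2 arrays 2 and 3 at 4.76, the fall in sh2 and the difference between the lines may be limited too. EPHA4 was higher in sh2 than in sh1 by 0.90 ± 0.23 (adjusted p = 0.025), a difference that did not pass without sh2 array 1, sh1 array 1 or sh1 array 3 (adjusted p = 0.0872, 0.0851 and 0.0967).

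EPHB4, the main receptor of ephrin-B2, was lower in sh2. Its log2 signal was 11.10, 11.53 and 10.98 in sh2 and 11.53, 11.34 and 11.54 in sh1, against 11.98, 11.85 and 11.76 in the control. Both lines lay below the control arrays, and they overlapped each other. EPHB4 fell by 0.66 ± 0.16 in sh2 (limma, adjusted p = 0.0134), whereas its difference of -0.39 ± 0.16 in sh1 did not pass (adjusted p = 0.111). The sh2 call was lost without control array 1 (adjusted p = 0.058) or sh2 array 3 (0.055). The lines differed by -0.27 with a 95% interval of -0.61 to 0.08 (adjusted p = 0.353), so a difference between them was not shown.

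EPHA1 and EPHB3, a receptor of ephrin-A ligands and a receptor of ephrin-B ligands known from the intestinal epithelium, lay near the background. EPHA1 had log2 signals of 3.47 to 3.53 in sh2, 3.06 to 3.34 in sh1 and 3.31 to 3.59 in the control, all under the proxy of 4.21. EPHB3 ranged from 4.04 to 4.17 in sh2, 3.90 to 4.10 in sh1 and 4.12 to 4.52 in the control. Only control array 1 of EPHB3 (4.52) was above the proxy, and neither gene passed in any comparison. Differences from the control were 0.01 in sh2 and -0.25 in sh1 for EPHA1 (adjusted p = 0.975 and 0.242), and -0.17 and -0.25 for EPHB3 (adjusted p = 0.496 and 0.255). Signals this low cannot show whether the genes changed.

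Among the ligands, EFNB2, which encodes ephrin-B2, rose in both lines and more so in sh2. The log2 signal was 8.72, 8.24 and 8.55 in sh2 and 7.80, 7.77 and 7.49 in sh1, against 6.80, 6.85 and 7.04 in the control. The 3 groups did not overlap, with sh2 highest and the control lowest. EFNB2 rose by 1.61 ± 0.15 in sh2 (3.05-fold, limma, adjusted p = 3.01e-05) and by 0.79 ± 0.15 in sh1 (1.73-fold, adjusted p = 0.00376). The difference between sh2 and sh1 was 0.82 ± 0.15 (adjusted p = 0.00498), and it passed with any 1 array left out (0.71 to 0.95, adjusted p up to 0.025).

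EFNA5, the lipid-anchored ephrin-A5, was higher in sh2 than in either other group. Log2 signals were 12.45, 12.23 and 12.63 in sh2, 11.89, 11.96 and 11.60 in sh1, and 11.96, 11.88 and 11.97 in the control. The sh2 arrays lay above all others, and sh1 overlapped the control. EFNA5 rose by 0.50 ± 0.14 in sh2 against the control (limma, adjusted p = 0.0358) and by 0.62 ± 0.14 against sh1 (adjusted p = 0.0164), while its difference in sh1 against the control was -0.12 ± 0.14 (adjusted p = 0.651). The rise in sh2 over the control was small, and it did not pass without sh2 array 1 or 3 or without any 1 of the control arrays (adjusted p = 0.0766 to 0.128). The difference from sh1 did not pass without sh2 array 3 or sh1 array 3 (adjusted p = 0.0647 and 0.0697).

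EFNB1, which encodes ephrin-B1, was lower in sh2. Its log2 signal was 6.44, 6.51 and 6.32 in sh2 and 7.12, 7.01 and 6.79 in sh1, against 7.20, 7.31 and 6.63 in the control. The sh2 arrays were below all others, and sh1 lay within the range of the control. EFNB1 fell by 0.62 ± 0.18 in sh2 (limma, adjusted p = 0.0336), while the difference in sh1 was -0.07 ± 0.18 (adjusted p = 0.842). The fall did not pass without any 1 of the sh2 arrays or without control array 1 or 2 (adjusted p = 0.0624 to 0.128). Between sh2 and sh1 the difference of -0.55 did not pass (adjusted p = 0.0744), although it did without control array 3 (0.0266).

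EFNA1, the ligand of EPHA2 known as ephrin-A1, passed in no comparison. Log2 signals were 6.24, 5.76 and 6.13 in sh2 and 5.88, 5.86 and 6.83 in sh1, against 6.61, 6.35 and 6.59 in the control. The sh2 arrays lay below the control, whereas sh1 array 3 was above every control array and the other two sh1 arrays below. The difference was -0.47 ± 0.24 in sh2 (limma, adjusted p = 0.232) and -0.33 ± 0.24 in sh1 (adjusted p = 0.419). Without sh1 array 3 the sh1 difference was -0.65 and passed (adjusted p = 0.0292), so 1 array decides that value.

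**Figure D2:**
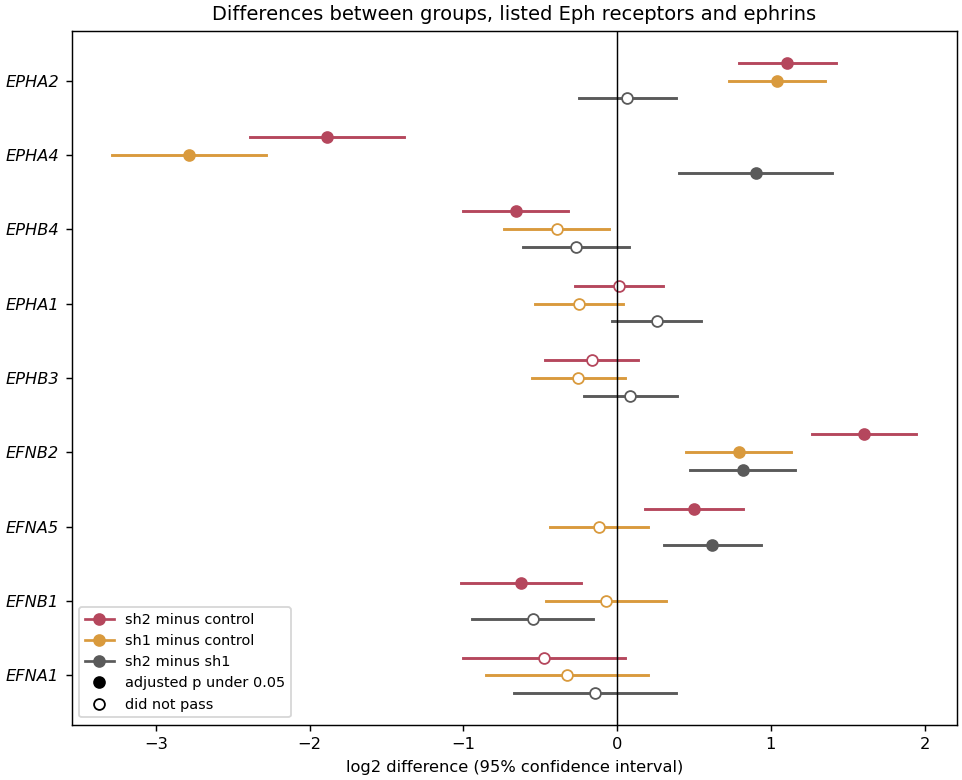
Log2 difference (horizontal axis) of each measured Eph receptor and ephrin for sh2 minus control, sh1 minus control and sh2 minus sh1, with 95% confidence intervals from limma. Filled points passed at an adjusted p under 0.05, which was the case for 6, 3 and 3 of the 9 genes.

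Set directly against each other, sh2 and sh1 differed in 3 of the 9 members, EFNB2, EFNA5 and EPHA4, all higher in sh2, where 5.73% of all rows were higher, 5.57% lower and 11.3% passed in either direction. The arrays of sh2 and sh1 did not overlap for 5 of 9 members, against 27.1% of all rows. This count includes EPHA1, whose arrays all lay under the background proxy. For the other 6 members the difference was between -0.55 (EFNB1) and 0.26 (EPHA1). By role, receptors gave 1 rise and 2 falls in sh2 and 1 of each in sh1, among 5 measured. The 4 ligands gave 2 rises and 1 fall in sh2, and 1 rise and 0 falls in sh1. Over all rows, 16.3% passed in sh2 and 18.8% in sh1, each against the control.

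Differences of a gene can go together with those of the genes around it on the chromosome. The 40 nearest genes with a signal above the median were used as neighbours. For EPHA4 on chromosome 2 their median difference was 0.05 in sh2 and -0.01 in sh1. The neighbours of EPHA2 on chromosome 1 were at 0.14 and 0.25, and EPHA2 still passed after their median was subtracted (0.97 in sh2 and 0.79 in sh1, limma, adjusted p = 0.000777 and 0.00266). Around EFNA5 on chromosome 5 the neighbours were lower, with medians of -0.61 in sh2 and -0.47 in sh1. EFNA5 thus differed from its surroundings by 1.11 in sh2 (adjusted p = 0.000292) and by 0.35 in sh1 (adjusted p = 0.125).

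EPHB4 on chromosome 7 and its neighbours moved the same way. The neighbours were at -0.34 in sh2 and -0.28 in sh1, and after subtraction EPHB4 was at -0.32 in sh2 and no longer passed (limma, adjusted p = 0.21). EFNB2 on chromosome 13 had neighbours at 0.33 in sh2 and 0.03 in sh1. Its rises passed after subtraction (1.27 in sh2 and 0.76 in sh1, adjusted p = 0.000457 and 0.011), but the difference between the lines did not (0.51, adjusted p = 0.0916). For EFNB1 on the X chromosome the neighbours were at 0.02 and -0.09, its fall in sh2 passed after subtraction (-0.65, adjusted p = 0.0339), and so did its difference between sh2 and sh1 (-0.67, adjusted p = 0.0385). EPHA1 had neighbours at 0.27 and 0.40, and its value in sh1 after subtraction passed (-0.65, adjusted p = 0.0052), though its signal stayed under the background proxy. The part of these regional differences in the values of the genes was not tested.

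**Figure D3:**
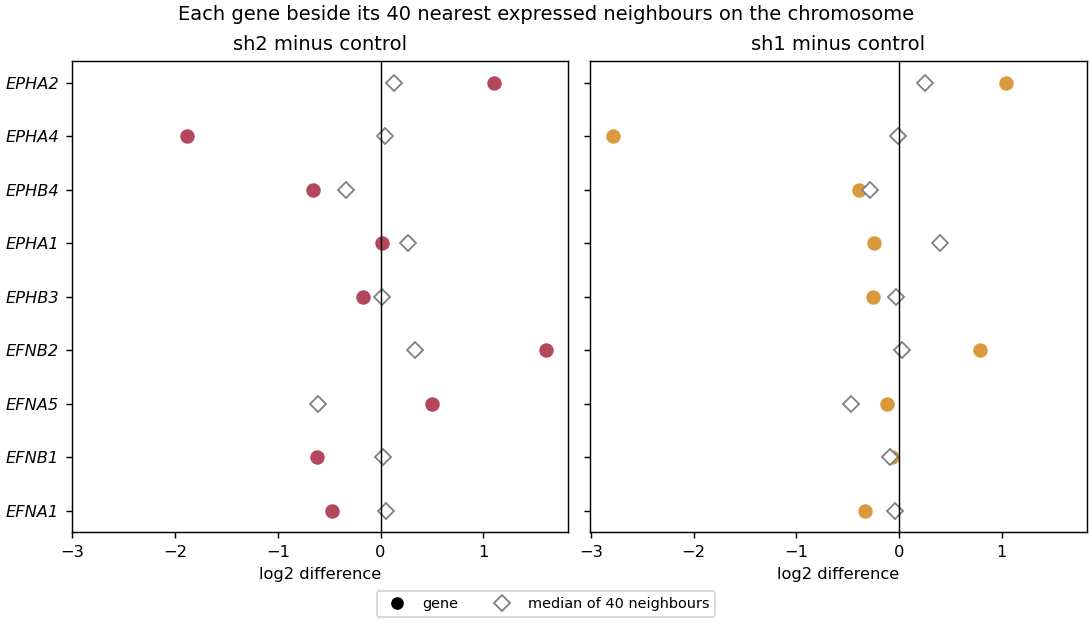
Log2 difference (horizontal axis) of each measured Eph receptor and ephrin (filled circle) and the median of its 40 nearest neighbours with a signal above the median (open diamond), for sh2 minus control and sh1 minus control. EFNA5 lies above its neighbours (0.50 against -0.61 in sh2), and EPHB4 lies on the same side as its neighbours in both lines.

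The other Eph receptors and ephrins were measured with 12 of 12 genes. In sh2, 3 rose and 2 fell, and in sh1, 1 rose and 2 fell, beside 16.3% and 18.8% of all rows that passed. EPHB6, a family member whose kinase domain is inactive, stood out in sh2, with log2 signals of 8.98, 8.49 and 7.78 in sh2 and 5.85, 5.35 and 5.71 in sh1, against 4.91, 5.49 and 5.10 in the control. The sh2 arrays were above all others, while sh1 and the control overlapped. EPHB6 rose by 3.25 ± 0.27 in sh2 (limma, adjusted p = 8.78e-06), against a difference of 0.47 ± 0.27 in sh1 (adjusted p = 0.283), and sh2 exceeded sh1 by 2.78 ± 0.27 (adjusted p = 3.69e-05). Its 40 neighbours were at 0.26 in sh2 and 0.37 in sh1.

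EPHA5, a receptor known from neurons, fell in both lines, with differences of -2.16 ± 0.21 in sh2 and -1.93 ± 0.21 in sh1 (limma, adjusted p = 3.15e-05 and 5.63e-05). Its log2 signal was 4.65, 3.95 and 3.88 in sh2 and 4.39, 4.27 and 4.50 in sh1, against 6.32, 6.04 and 6.60 in the control. All shRNA arrays lay below the control and near the background proxy, so the size of the fall is limited by the background. EPHB1, a receptor of ephrin-B ligands, fell by 0.74 in sh2 and by 0.72 in sh1 (adjusted p = 0.00982 and 0.0101). Its log2 signals of 4.38 to 4.90 in sh2 and 4.43 to 4.84 in sh1 were also near the proxy, against 5.26 to 5.50 in the control. The size of its fall may thus be limited by the background too. EPHA7, which binds ephrin-A ligands, rose by 1.07 ± 0.16 in sh2 (adjusted p = 0.000739), with a difference of 0.11 in sh1 (adjusted p = 0.717) and of 0.96 between sh2 and sh1 (adjusted p = 0.00212).

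EFNA4, which encodes ephrin-A4, rose by 0.60 in sh2 and by 0.69 in sh1 (limma, adjusted p = 0.0301 and 0.0127). The sh2 rise was lost without control array 1 or 2 or sh2 array 1 or 2 (adjusted p = 0.0826 to 0.112), and the sh1 rise without control array 1 or sh1 array 2 (0.0554 and 0.0511). Its control arrays of 3.45, 3.57 and 3.75 lay under the background proxy, as did its sh2 mean of 4.19 and its mean over all arrays of 4.02. The remaining 7 genes passed in no comparison. EPHA3 differed by 0.28 in sh2 and 0.02 in sh1, EPHA6 by -0.25 and -0.46, EPHA8 by -0.23 and 0.05, and EPHA10, another receptor with an inactive kinase, by -0.39 and 0.03. Among these ligands EFNA2 differed by -0.11 and 0.44, EFNA3 by 0.21 and 0.01, and EFNB3 by 0.16 and 0.03. After the neighbours were subtracted, EFNA2 passed in sh1 (0.64, adjusted p = 0.0168). Between sh2 and sh1, EFNA2 passed without control array 2 or sh1 array 3 (0.0439 and 0.0425). Without sh2 array 2, EPHA6 passed in sh1 (0.0484) and EPHA10 in sh2 (0.0496). EFNA2 and EPHA6 had means under the background proxy (3.90 and 3.77). Over all 21 measured family genes, 6 rose and 5 fell in sh2 and 3 of each in sh1, beside the shares of all rows given above.

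**Figure D4:**
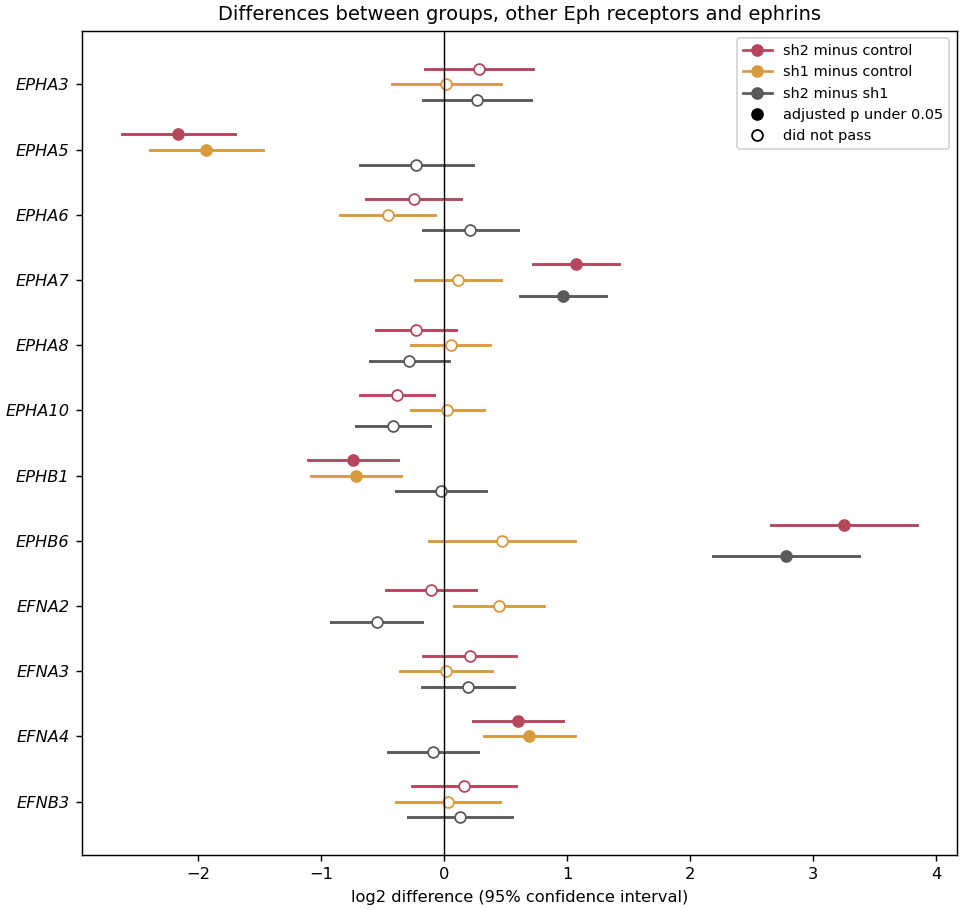
Log2 difference (horizontal axis) of the other 12 Eph receptors and ephrins for sh2 minus control, sh1 minus control and sh2 minus sh1, with 95% confidence intervals from limma. Filled points passed at an adjusted p under 0.05; EPHB6 in sh2 (3.25) lies farthest above zero and EPHA5 (-2.16 in sh2 and -1.93 in sh1) farthest below.

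Partners of forward signalling, the adaptors, kinases and exchange factors that act below Eph receptors, changed in both directions. Of 26 listed, 23 were measured, and 5 rose and 3 fell in sh2, while 7 rose and 4 fell in sh1 (median 0.14 and 0.07), beside 16.3% and 18.8% of all rows that passed. NGEF, the exchange factor ephexin-1 that acts below EPHA4 in neurons, had log2 signals of 10.67, 10.36 and 10.24 in sh2 and 9.35, 9.39 and 9.48 in sh1, against 7.99, 8.14 and 7.85 in the control. The groups did not overlap, with sh2 highest. NGEF rose by 2.43 in sh2 and by 1.41 in sh1 (limma, adjusted p = 5.22e-07 and 3.38e-05). CHN1, a GTPase-activating protein for Rac that acts below EphA4 in mouse neurons, fell by 1.58 in sh2 and by 0.86 in sh1 (adjusted p = 0.000115 and 0.00605).

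The other forward partners among the 4 largest passing changes of each line were adaptors and an exchange factor. Kinases and further exchange factors of the list also passed and are not named here. The adaptor GRB7 rose by 0.77 in sh2 and by 1.15 in sh1 (limma, adjusted p = 0.0152 and 0.00115), and its relative GRB10 fell by 0.65 and by 0.91 (adjusted p = 0.012 and 0.0013). GRB7 in sh2 did not pass without control array 1, sh2 array 2 or sh2 array 3 (0.0522 to 0.0672). GRB10 in sh2 did not pass without sh2 array 2 (0.0505) or after the neighbours' median was subtracted (-0.46, adjusted p = 0.0906). TIAM1, an exchange factor for Rac, rose by 1.00 in sh2 (adjusted p = 0.00138) and differed by -0.15 in sh1 (0.617). NCK2, an adaptor that also binds ephrin-B tails, fell by 0.94 in sh2 (0.000441) and differed by -0.24 in sh1 (0.245).

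Partners of reverse signalling bind the intracellular tail of ephrin-B proteins. Of 7 measured, 0 rose and 2 fell in sh2, and 2 rose and 2 fell in sh1 (median -0.17 and -0.28), beside the same 16.3% and 18.8% of all rows. PTPN13, a phosphatase that binds ephrin-B tails in mouse, had log2 signals of 4.74, 5.30 and 5.02 in sh2 and 6.44, 6.87 and 6.61 in sh1, against 9.15, 9.52 and 9.42 in the control. It fell by 4.34 in sh2 and by 2.72 in sh1 (limma, adjusted p = 2.49e-08 and 1.09e-06), and the 3 groups did not overlap. The lowest sh2 array of PTPN13 (4.74) was near the background proxy, so the size of the fall in sh2 may be limited by the background. STAT3, a transcription factor also used by many cytokine receptors, fell by 0.93 in each line (adjusted p = 0.000448 in sh2 and 0.000373 in sh1). The scaffold protein GRIP1 rose by 0.85 in sh1 (0.0128) with 0.53 in sh2 (0.111), and PICK1, another scaffold, rose by 0.54 in sh1 (0.0325) with -0.13 in sh2 (0.654). The GRIP1 call was lost without control array 2 (0.0575) and after subtraction of the neighbours (0.43, adjusted p = 0.172), and the PICK1 call without control array 1, 2 or 3 or sh1 array 1 or 2 (0.0675 to 0.114). In sh2, GRIP1 passed without control array 1 or sh2 array 2 (0.0403 and 0.0469). Its control arrays of 4.87, 4.18 and 4.39 lay near the background proxy.

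Among genes of shedding, dephosphorylation and turnover, 10 of 11 were measured, with 2 up and 1 down in sh2 and 1 of each in sh1 (median -0.07 and 0.16), beside 16.3% and 18.8% of all rows. ADAM10, the protease that cleaves ephrin-A ligands, rose by 0.51 in sh2 and by 0.81 in sh1 (limma, adjusted p = 0.0243 and 0.00143), but neither passed after the neighbours were subtracted (0.36 and 0.22, adjusted p = 0.106 and 0.306). The sh2 rise of ADAM10 was also lost without control array 1 or 2 or sh2 array 3 (0.051 to 0.0969). RHBDL2, a membrane protease that cleaves ephrin-B3, rose by 0.93 in sh2 (0.00116), with 0.16 in sh1 (0.526). ANKS1A, which binds EPHA2 and limits its turnover, fell by 0.63 in sh2 (0.018), a call lost without control array 1 or 3, without sh2 array 2 (0.0677 to 0.0807) and after subtraction (-0.22, adjusted p = 0.456). Its relative ANKS1B fell by 1.49 in sh1 (0.0135), where the arrays spread from 4.84 to 6.68, a call lost without control array 1 (0.0568). In sh2 ANKS1B differed by -0.84 without overlap of the arrays and did not pass (adjusted p = 0.154), although it did with 2 groups only (0.0194), without sh1 array 2 (0.0309) and after subtraction of the neighbours (-1.27, adjusted p = 0.0349).

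**Figure D5:**
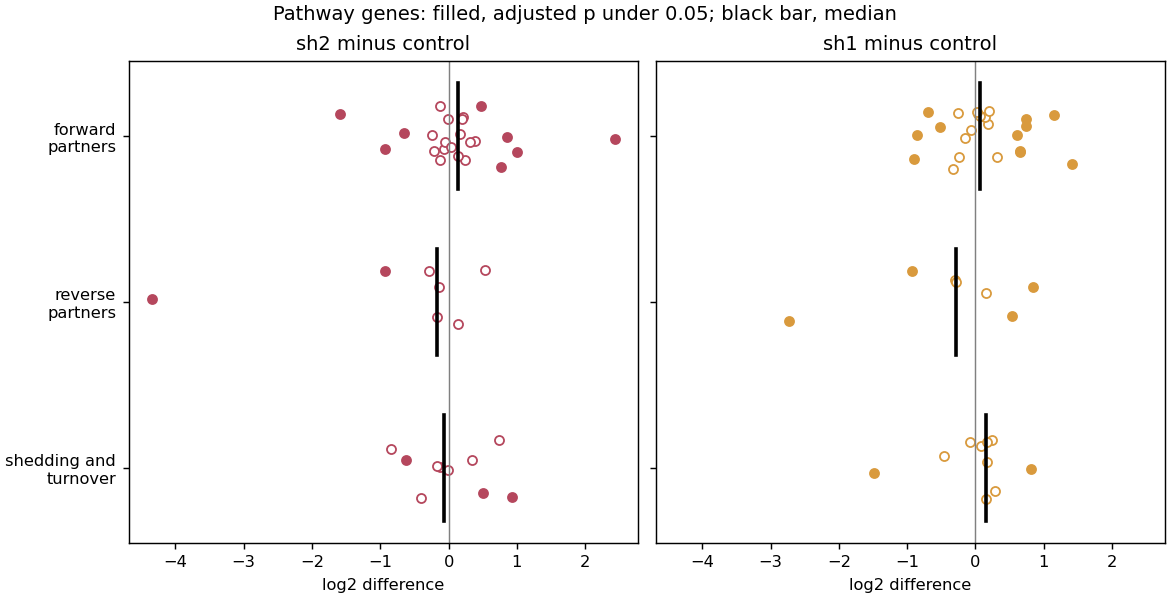
Log2 difference (horizontal axis) of each measured gene of 3 pathway lists for sh2 minus control and sh1 minus control, with filled points for an adjusted p under 0.05 and a black bar at the list median. NGEF lies highest and PTPN13 lowest in both lines.

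The genes whose profile over the 9 arrays was most like a member were found by the root mean square difference of their deviations from the control mean, in log2 units. For EPHA4 these were LTBP1 (0.24), PALMD (0.25) and RNF182 (0.25), with differences of -1.76, -1.90 and -2.04 in sh2. For EFNB2 they were MEF2A (0.16), GPCPD1 (0.19) and PTCHD3 (0.21), and for EPHA2 they were CLDN7 (0.13), NECTIN2 (0.13) and RSL24D1 (0.14). CLDN7, a claudin of tight junctions, differed by 1.24 in sh2 and 1.04 in sh1, and NECTIN2, an adhesion molecule of adherens junctions, by 0.99 and 0.89. The 9 arrays come from 3 clones, so likeness mainly reflects 3 group means.

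Markers of carcinoma epithelium were present, with mean log2 signals of 9.21 to 16.67 for the 6 markers. All 6 passed in both lines, beside 16.3% of all rows in sh2 and 18.8% in sh1. In sh2, 4 were higher and 2 lower, and in sh1, 5 were higher and 1 lower. EPCAM, an epithelial adhesion molecule, rose by 0.74 in sh2 and by 4.94 in sh1 (limma, adjusted p = 0.00361 and 1.77e-09), and sh2 was lower than sh1 (-4.20, adjusted p = 1.92e-08). The keratin KRT19 fell by 0.57 in sh2 and by 1.69 in sh1, whereas the keratins KRT8 (0.70 and 0.71) and KRT18 (1.27 and 1.21) rose. CDH1, the epithelial cadherin, fell by 0.52 in sh2 and rose by 2.03 in sh1 (limma, adjusted p = 0.0419 and 4.02e-06), while CLDN4, another claudin, rose by 1.84 and by 2.08. The log2 of the summed epithelial signal was 17.66 to 17.78 in sh2 and 17.61 to 17.72 in sh1, against 17.27 to 17.39 in the control. This sum is weighted toward the genes with the highest signals, KRT8 and KRT19 (mean log2 signals of 16.67 and 15.43). The part of the epithelial signal in the Eph and ephrin differences was not tested. Each group was grown from 1 colony of AsPC-1 cells. Bulk RNA is averaged over the cells of a culture, so how a signal was spread over these cells was not measured.

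EPHB4 and EFNB2 are known from endothelium, and of 6 endothelial markers 0 passed in any of the comparisons. Of all rows, 16.3% passed in sh2, 18.8% in sh1 and 11.3% between the lines. PECAM1, KDR and TEK lay under the background proxy, and the summed signal was 7.63 to 7.74 in sh2 and 7.84 to 8.05 in sh1, against 7.66 to 7.84 in the control. In limma, 1 of the 6, ERG, had an unadjusted p under 0.05, between sh2 and sh1 (-0.36). Of 6 fibroblast markers, COL1A2 fell in both lines (-1.16 in sh2 and -1.18 in sh1) and THY1 rose in sh1 (0.87). The summed fibroblast signal was 9.57 to 9.87 in sh2 and 9.85 to 10.13 in sh1, against 10.44 to 10.82 in the control. COL1A2, with means of 9.20 in sh2, 9.18 in sh1 and 10.36 in the control, weighs most in this sum. Of 4 measured leukocyte markers, PTPRC fell in both lines at signals near the proxy, and CD68, which many cell types express, fell in sh1 (-0.48). The summed leukocyte signal was 12.68 to 12.99 in sh2 and 11.74 to 12.13 in sh1, against 12.39 to 12.45 in the control. This sum is almost wholly CD68, with means of 12.81 in sh2, 11.92 in sh1 and 12.40 in the control. The part of these markers in the results was not tested.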

How the data were processed

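Total RNA (100 ng) of 9 samples was labelled with biotin and hybridised to 1-colour whole-transcript arrays, 3 per group, per the labels. The deposited log2 signals were used as the authors gave them. The submitters' processing notes name Transcriptome Analysis Console, without a version or the steps of summary and normalisation. The log2 scale was read from the range, the 2 decimals and the near-identical distributions. Values were used without further scaling, and the number of arrays limits the precision.

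Of 21448 rows, 17709 carried 1 gene symbol. A gene with several rows would be represented by the row with the highest mean, though each family gene had 1 row. Groups were compared with limma 3.58.1 in R 4.3.3 (lmFit, contrasts.fit and eBayes over all 9 arrays, two-sided), with Benjamini-Hochberg adjustment over all rows. The pipeline was tested on simulated data. Neighbours were the nearest genes by RefSeq midpoint (GRCh38.p14), and tables and plots were made with Python 3.11.15.

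Arrays were not paired by the numbers in their titles. Deviations of same-numbered arrays correlated at -0.0358 to 0.18 and 2 of 9 pairs were over 0.1. Named genes are all measured members, STOML2, the other 12 family genes, up to 4 passing genes per pathway list and line with the largest change, and the 3 most similar genes of the 3 members with the widest range of group means. The members and lists were chosen with earlier results of these data known. Markers are printed as a check of the cell type. The result of 1 pathway list is not reported here.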

Additional observations from a re-analysis of the deposited data

Results flagged for a closer look

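In 5 of the 21 measured family genes the change differed between the 2 shRNA lines, by the direct limma comparison of sh2 with sh1, in which 11.3% of all rows passed. EPHB6 was higher in sh2 by 2.78 ± 0.27 (SE, adjusted p = 3.69e-05). EPHA7 was higher in sh2 by 0.96 ± 0.16 (adjusted p = 0.00212). EFNB2, which rose in both lines, was higher in sh2 by 0.82 ± 0.15 (adjusted p = 0.00498), but not after the median of its neighbours was subtracted (0.51, adjusted p = 0.0916). EPHA4, which fell in both lines, was higher in sh2 by 0.90 ± 0.23 (adjusted p = 0.025), a call lost without sh2 array 1, sh1 array 1 or sh1 array 3 (0.0851 to 0.0967). The EPHA4 mean in sh1 (4.06) lay under the background proxy. EFNA5 was higher in sh2 by 0.62 ± 0.14 (adjusted p = 0.0164), a call lost without sh2 array 3 or sh1 array 3 (0.0647 and 0.0697). Each line is 1 clone, so clone and shRNA cannot be told apart.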

How the results depend on the processing

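The rises of EPHA2 and EFNB2 and the fall of EPHA4 against the control passed in both lines under quantile normalisation, median centring, without dim rows, with a trend and robust prior, with 2 groups only, with the replicate block, after neighbour correction, at an adjusted p under 0.01 and with any 1 array left out. At a change of at least 2-fold, EFNB2 in sh1 (0.79) was the exception. Of the 9 members, 6 passed in sh2, 3 in sh1 and 3 between sh2 and sh1. At an adjusted p under 0.01 this was 3, 3 and 1, at least 2-fold 3, 2 and 0 by limma, and with 1 array left out 3 to 6, 3 to 4 and 1 to 4. Of all rows, 1921, 2425 and 1331 passed at 0.01 and 966, 1200 and 755 at 2-fold, against 3498, 4025 and 2423. Leaving out control array 1 or sh2 array 3 left 3 members in sh2, and leaving out sh1 array 3 left 1 between sh2 and sh1.

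With the replicate block (array number, not a pairing in the labels) 5, 3 and 4 members passed. EFNA5 in sh2 was lost (adjusted p = 0.06), as was PICK1 in sh1 (0.0527), and EFNB1 between sh2 and sh1 was gained (-0.55, adjusted p = 0.0372). Median centring also lost EFNA5 in sh2 (0.0501). With 2 groups only, EFNB1 in sh2 (0.0538) and EPHA4 between the lines (0.0594) were lost, and EFNB1 between the lines passed (0.0424). The trend and robust prior added EPHB4 in sh1 (0.0475). EPHA1, EPHB3, EPHA3, EPHA6, EPHA8, EFNA2 and EFNA4 were not tested where dim rows were left out. Each family gene had 1 row, so another choice of row could not be tried. The cause of these changes was not tested.

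Signs changed only for differences that passed neither way. After neighbour correction these were EPHA1 in sh2 (-0.26), EFNA5 in sh1 (0.35), EFNB1 in sh1 (0.0178), EPHA6 between the lines (-0.0083), EPHA8 in sh1 (-0.26), EPHA10 in sh1 (-0.0606), EFNA2 in sh2 (0.18), EFNB3 in sh1 (-0.06) and ANKS1A in sh1 (0.33). With 1 array left out, sh2 minus control spanned -0.075 to 0.065 for EPHA1. Ranges of sh1 minus control were -0.28 to 0.0583 (EFNB1), -0.0133 to 0.0617 (EPHA3), -0.0167 to 0.22 (EPHA7), -0.0467 to 0.20 (EPHA8), -0.0367 to 0.0983 (EPHA10), -0.11 to 0.21 (EFNA3), -0.17 to 0.21 (EFNB3) and -0.23 to 0.0217 (ANKS1A). Ranges of sh2 minus sh1 were -0.035 to 0.17 (EPHA2), -0.31 to 0.17 (EFNA1), -0.0117 to 0.44 (EPHA3), -0.16 to 0.11 (EPHB1) and -0.19 to 0.0517 (EFNA4). Signals under 4.21 limit what can be said of those genes, of EPHA4 in sh1 and of EPHA5 in sh2.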

Other observations

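Some family genes lie close together on a chromosome. On chromosome 1, EFNA3 and EFNA1 are adjacent protein-coding genes in RefSeq order (0 between them), and EFNA4 lies 1 gene further. EFNA4 rose by 0.60 in sh2 and by 0.69 in sh1, whereas EFNA3 differed by 0.21 and 0.01 and EFNA1 by -0.47 and -0.33, which did not pass. On chromosome 7, EPHB6 and EPHA1 have 15 protein-coding genes between them and neighbours with similar medians (0.26 and 0.27 in sh2, 0.37 and 0.40 in sh1). EPHB6 rose by 3.25 in sh2, while EPHA1 differed by 0.01 at a signal under the background proxy. The difference between the genes of such a pair was not tested.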
